A study of Mus musculus with 15 samples.

Results

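The brush border hydrolases are enzymes anchored in the apical membrane of enterocytes, and 9 of them were followed here: the disaccharidases Lct, Sis and Treh, the aminopeptidases Anpep and Enpep, the dipeptidyl peptidase Dpp4, the alkaline phosphatase Alpi, and the meprin subunits Mep1a and Mep1b. They were chosen by gene symbol, with earlier results of these data known, and all 9 were found among the 45808 rows of the deposited table. RNA of the emptied cecum was sequenced from 7 AIMD mice (antibiotic-induced microbiome-depleted) and 8 vehicle-treated mice. All were male wild-type (WT) C57BL/6 mice on normal chow, with an age of 20 weeks in the sample labels. By gavage over 30 days, AIMD mice received the antibiotics vancomycin, ampicillin, metronidazole and neomycin with the antifungal amphotericin B, and vehicle-treated mice received water. The mice were housed with cage mates, and which mice shared a cage was not used here. The unit was FPKM, which divides the reads of a gene by gene length and a scale of library size, so that levels can be set beside each other between genes.

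Enterocytes carry a dense border of microvilli on the side that faces the lumen, and the hydrolases set in its membrane complete the breakdown of sugars, peptides and phosphate esters just before uptake. Lactase, sucrase-isomaltase and trehalase split disaccharides and short glucose chains, aminopeptidases N and A take single residues from the amino end of peptides, and dipeptidyl peptidase 4 takes dipeptides and cuts the incretin hormones. Intestinal alkaline phosphatase removes phosphate from bacterial lipopolysaccharide, and the meprins are metalloproteases that cut, among other substrates, the mucin of the mucus layer. Sucrase-isomaltase and lactase are known as enzymes of the small intestine, and meprins are found along both the small and the large intestine.

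The bases before the RefSeq start site are shown for Sis, which was far higher in 4 libraries than in the others, and for the 3 members that held letters of HNF4, a factor whose mRNA is described further on. The sequences are those of RefSeq on GRCm38.p6, 250 bases each, in the direction of the gene, and 8 of the 9 members had an entry. Capitals mark matches on either strand. The letters searched were CAAAGT for the hepatocyte nuclear factor HNF4, TTTATNA for the intestinal homeobox factors CDX, and AGATAA for the zinc finger factors of the GATA family. None of the marked matches overlap. The windows are chr3:72967864-72968113 (Sis, minus strand), chr9:44672983-44673232 (Treh, plus strand), chr1:87101607-87101856 (Alpi, minus strand) and chr17:43502774-43503023 (Mep1a, minus strand). The last 39 bases of the Mep1a window, with its match, lie inside the gene as GENCODE draws it, since RefSeq places the start further in.
Sis: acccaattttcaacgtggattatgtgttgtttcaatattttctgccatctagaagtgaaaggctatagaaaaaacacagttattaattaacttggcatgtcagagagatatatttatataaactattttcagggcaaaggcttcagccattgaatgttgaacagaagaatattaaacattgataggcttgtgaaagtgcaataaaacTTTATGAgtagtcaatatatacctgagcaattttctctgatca
Treh: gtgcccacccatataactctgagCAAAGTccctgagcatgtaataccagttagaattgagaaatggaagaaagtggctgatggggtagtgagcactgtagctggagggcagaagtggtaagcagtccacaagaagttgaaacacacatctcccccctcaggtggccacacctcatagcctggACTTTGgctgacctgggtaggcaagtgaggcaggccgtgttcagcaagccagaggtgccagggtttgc
Alpi: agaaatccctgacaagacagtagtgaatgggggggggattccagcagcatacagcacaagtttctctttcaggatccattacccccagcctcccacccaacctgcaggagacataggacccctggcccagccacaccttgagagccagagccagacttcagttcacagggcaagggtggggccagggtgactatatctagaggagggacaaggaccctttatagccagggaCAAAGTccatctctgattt
Mep1a: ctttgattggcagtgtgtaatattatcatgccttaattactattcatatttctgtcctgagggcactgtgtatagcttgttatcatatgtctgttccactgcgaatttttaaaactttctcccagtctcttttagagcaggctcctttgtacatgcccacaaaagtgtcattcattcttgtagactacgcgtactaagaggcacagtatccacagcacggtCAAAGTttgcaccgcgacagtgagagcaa
The Sis window held 1 match, for CDX, and the Treh, Alpi and Mep1a windows held matches for HNF4 alone, 2 in Treh and 1 each in Alpi and Mep1a. Among 32851 promoter windows of the same length, CDX letters stood in 12.8%, HNF4 letters in 12.6% and GATA letters in 9.99%. Of the members not printed, Lct held 1 CDX match and 2 GATA matches and Dpp4 held 1 GATA match. Anpep, whose window lies wholly inside its GENCODE gene, and Enpep held none of the 3 motifs. The Anpep window was 72.8% G or C and the Sis window 31.6%, against a median of 52.4% over all windows.

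Reads on genes, recovered from the FPKM, ranged from 8679768 to 18108732 in AIMD mice and from 4372476 to 14406038 in vehicle-treated mice, so AIMD libraries were deeper (exact permutation test, two-sided, p = 0.0345). Across the 11971 genes tested with limma, 36.0% passed an adjusted p of 0.05, 19.4% higher and 16.6% lower in AIMD mice. These are 2322 genes higher and 1993 lower. When the values were taken relative to 8 epithelial structural genes, the median log2 fold change of all tested genes moved from 0.01 to -0.24 and the calls became 758 higher and 3128 lower.

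Before any member is compared, 4 libraries have to be named. Fabp6, the bile acid-binding protein of ileal enterocytes, was at 223 FPKM in AIMD replicate 6 and at 1030.5, 1052 and 1701 FPKM in vehicle replicates 5, 7 and 8. The next were vehicle replicate 4 at 69.1 and AIMD replicate 1 at 43.0, and the others lay between 1.41 and 13.8. In vehicle-treated mice, 7 of 12 tested genes typical of the small intestine, Fabp6 itself left out, and 3 of 5 tested Paneth cell genes were higher in all 3 of these libraries than in the 5 others, a pattern seen in 5.40% of all tested genes. Of the large intestine genes tested, 1 of 7 behaved so, and Car1, carbonic anhydrase 1 of the large intestine, was at 16505 FPKM or more in every mouse. Gata4, a factor of the proximal small intestine, did not exceed 0.058 FPKM, and the 10 pancreatic acinar genes summed to at most 0.789 FPKM. Between the groups, 6 of the 13 small intestine genes tested were higher in AIMD mice and none was lower, beside 19.4% and 16.6% of all tested genes, and their summed level was 6958 to 11566 FPKM in AIMD and 3018 to 11307 FPKM in vehicle-treated mice. All 4 libraries belong to the 8 with a positive score of the circadian clock genes, a score centred within each group. The 7 mice of negative score therefore hold none of them. Results are therefore given for all 15 mice and for the 11 without these libraries, a choice made after the data were seen. What part the ileal signal has in a result was not tested.

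**Figure D1:**
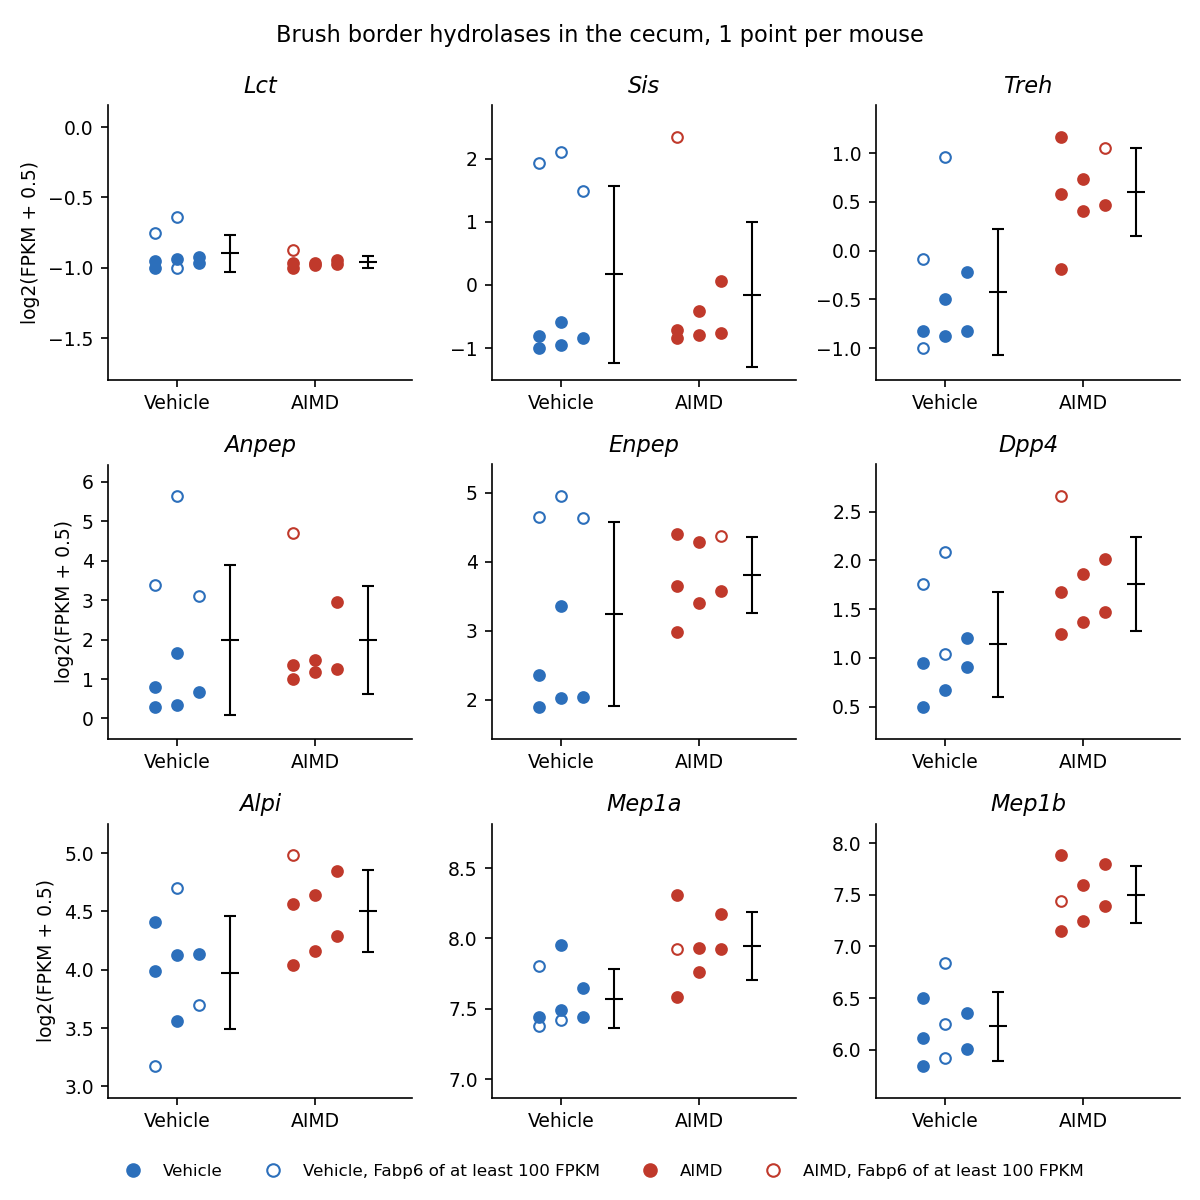
Level of each brush border hydrolase in every mouse, as log2(FPKM + 0.5), for vehicle-treated mice (blue, n = 8) and AIMD mice (red, n = 7); open circles are the 4 libraries with Fabp6 of at least 100 FPKM, and bars give the mean and SD over all mice of a group. Mep1b is the one member whose groups do not overlap, while the high values of Sis, Anpep and Enpep in vehicle-treated mice are the open circles.

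The 9 members covered a wide range of levels. In vehicle-treated mice the mean FPKM was 191 for Mep1a, 76.3 for Mep1b, 16.0 for Alpi, 13.1 for Enpep, 9.21 for Anpep, 1.85 for Dpp4, 1.22 for Sis, 0.327 for Treh and 0.039 for Lct. Every vehicle-treated mouse had more Mep1a than Mep1b and more Mep1b than any other member, whereas the ranges of Alpi, Enpep and Anpep overlapped, as did those of Dpp4, Sis and Treh. The 2 meprins made up 87.3% ± 6.60 (SD, n = 8) of the summed FPKM of the members in vehicle-treated mice and 90.1% ± 3.50 (SD, n = 7) in AIMD mice. The sum itself was 309 ± 68.7 FPKM in vehicle-treated mice and 481 ± 80.3 FPKM in AIMD mice. In AIMD mice the order of the means was the same except that Treh stood above Sis. Over the 11 mice without the 4 libraries Treh stood above Sis in both groups, at 0.148 and 0.063 FPKM in vehicle-treated and 0.998 and 0.19 FPKM in AIMD mice. The vehicle mean of Anpep was then 1.29 FPKM, just below the 1.32 of Dpp4.

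Mep1b (chr18:21061923-21100199, plus strand of GRCm38), which encodes the membrane-bound meprin beta, showed the clearest difference between the groups. Its level was 142 to 236 FPKM in AIMD mice, with a median of 173, and 56.8 to 114 FPKM in vehicle-treated mice, with a median of 72.1. The lowest AIMD mouse therefore lay above the highest vehicle-treated mouse, which was replicate 8. Groups without overlap in this direction were seen in 5.26% of tested genes. The means were 184 ± 35.6 (SD, n = 7) and 76.3 ± 19.0 (SD, n = 8), which is 1.28 ± 0.16 (SE) as a limma log2 fold change, with an adjusted p of 2.09e-05. Without the 4 libraries it was 1.35 ± 0.17 (SE; limma adjusted p = 0.000131). In bulk tissue, fewer cells of a type and less RNA per cell cannot be told apart. Of its 50-base windows, 1.30% also occur in transcripts of other genes.

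Mep1a (chr17:43474324-43502812, minus strand), the subunit that is mostly secreted, was the most abundant member in 14 of 15 mice and differed less. Its level was 191 to 316 FPKM in AIMD mice, with a median of 243, and 166 to 247 FPKM in vehicle-treated mice, with a median of 176. The ranges overlapped, and 2 AIMD mice lay above all vehicle-treated ones. The means were 249 ± 41.7 (SD, n = 7) and 191 ± 29.7 (SD, n = 8), which is 0.37 ± 0.13 (SE) as a limma log2 fold change, with an adjusted p of 0.0343. This call did not hold in several other settings: the limma adjusted p was 0.0997 without the 4 libraries, 0.0504 without the filter on low values and 0.603 relative to epithelial genes, and it rose to as much as 0.0823 when 1 mouse was left out.

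Because the subunits changed to unequal extents, the ratio of Mep1a to Mep1b differed. It was 1.37 ± 0.222 in AIMD mice (SD, n = 7, from 0.991 to 1.71) and 2.57 ± 0.346 in vehicle-treated mice (SD, n = 8, from 1.96 to 3.04). No AIMD mouse reached the lowest ratio of the vehicle-treated mice. The ratio was looked at after the levels were seen and is given as a description. AIMD replicate 2 was the only mouse with slightly more Mep1b than Mep1a.

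**Figure D2:**
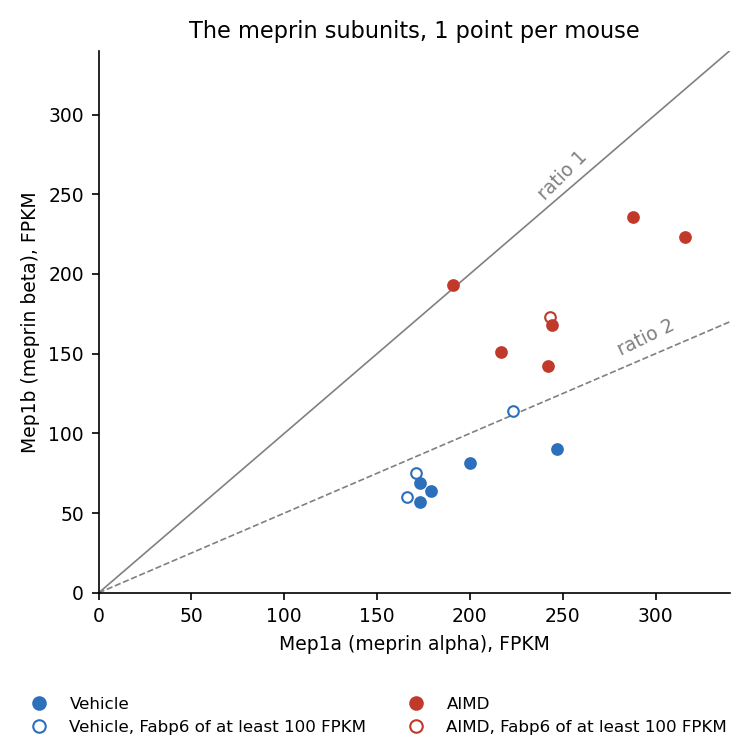
Mep1b against Mep1a in FPKM, 1 point per mouse, vehicle-treated in blue and AIMD in red, with open circles for the 4 libraries of high Fabp6; the solid line marks equal levels and the dashed line a ratio of Mep1a to Mep1b of 2. All AIMD mice lie above the dashed line with ratios of 0.991 to 1.71, and the vehicle-treated mice have ratios of 1.96 to 3.04.

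Treh (chr9:44673233-44686305, plus strand), which splits trehalose, the sugar of insects and fungi, was the second member called higher with a large fold change, at a low level. Its level was 0.378 to 1.74 FPKM in AIMD mice, with a median of 0.993, and 0 to 1.44 FPKM in vehicle-treated mice, with a median of 0.137. Vehicle replicate 8 alone was at 1.44, and every other vehicle-treated mouse was at or below 0.443. Between 9 and 63 reads stood behind the value of an AIMD mouse and between 0 and 13 behind that of a vehicle-treated mouse. Vehicle replicate 5 had no read, which allows up to 0.281 FPKM at its depth. The means were 1.08 ± 0.465 (SD, n = 7) and 0.327 ± 0.475 (SD, n = 8), which is 1.03 ± 0.27 (SE) as a limma log2 fold change, with an adjusted p of 0.00676, which the pseudocount of 0.5 makes smaller than the change in FPKM. Treh passed the filter with 7 mice at 0.5 FPKM or more, 6 of them AIMD, so the filter itself favoured a difference, and without a filter the limma adjusted p was 0.0177. Without the 4 libraries the groups did not overlap, with 0.378 as the lowest AIMD value and 0.358 as the highest vehicle value, and the log2 fold change was 1.18 (limma adjusted p = 0.00147). Among the 8 mice of positive clock-gene score it was 0.66 (limma adjusted p = 0.260).

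Sis (chr3:72888557-72967863, minus strand), sucrase-isomaltase, which frees glucose from sucrose and from short starch chains, was highest in the 4 libraries. In AIMD mice it ranged from 0.0593 to 4.57 FPKM with a median of 0.111, and in vehicle-treated mice from 0 to 3.79 FPKM with a median of 0.119. The 3 vehicle libraries of high Fabp6 were at 2.31 to 3.79 FPKM and the 5 others at 0 to 0.167, while AIMD replicate 6 was at 4.57 and the other AIMD mice at 0.546 or less. Only 5 mice reached 0.5 FPKM, so Sis was not among the genes tested with limma. The mean log2 values differed by -0.33 (exact permutation test, two-sided, p = 0.605), and by 0.26 without the 4 libraries (p = 0.152, exact permutation test). Vehicle replicate 1 had no Sis read, which allows up to 0.0541 FPKM.

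Lct (chr1:128284756-128328318, minus strand), lactase, was barely seen. No mouse had more than 4 reads on it, with 9 reads in all AIMD mice and 13 in all vehicle-treated mice. The highest value was 0.141 FPKM, in vehicle replicate 8, and the mean log2 values differed by -0.06 (exact permutation test, two-sided, p = 0.323). AIMD replicate 7 and vehicle replicates 1 and 5 had no read, which allows up to 0.0402, 0.0631 and 0.0898 FPKM. A difference in lactase was not detectable at this depth.

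Enpep (chr3:129269175-129332720, minus strand), aminopeptidase A, which takes acidic residues from peptides such as angiotensin II, gave results that changed with the mice included. Its level was 7.38 to 20.6 FPKM in AIMD mice, with a median of 12.1, and 3.21 to 30.5 FPKM in vehicle-treated mice, with a median of 7.15. The vehicle-treated mice fell apart into 3 libraries of high Fabp6 at 24.5 to 30.5 FPKM, above every AIMD mouse, and 5 others at 3.21 to 9.71 FPKM. Over all 15 mice the limma log2 fold change was 0.57 ± 0.47 (SE), with an adjusted p of 0.363. Over the 11 mice without the 4 libraries, the means were 13.4 ± 5.21 (SD, n = 6) and 4.93 ± 2.72 (SD, n = 5), which is 1.39 ± 0.29 (SE) as a limma log2 fold change, with an adjusted p of 0.00379. Among the 7 mice of negative clock-gene score, none of which is one of the 4 libraries, the 3 AIMD mice were at 7.38 to 19.0 FPKM and the 4 vehicle-treated mice at 3.21 to 4.60, a log2 fold change of 1.54 (limma adjusted p = 0.00501). Among the 8 of positive score it was -0.44 (limma adjusted p = 0.392). With the score as a covariate over 15 mice the log2 fold change was 0.57 (limma adjusted p = 0.139). Vehicle replicate 6, of positive score but with Fabp6 at 2.67 FPKM, was at 9.71 FPKM. The 4 libraries all have a positive score, so the 2 traits cannot be told apart in them.

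Anpep (chr7:79821803-79861059, minus strand), aminopeptidase N, which takes neutral residues from peptides, had the widest spread of the tested members. Its level was 1.49 to 25.4 FPKM in AIMD mice, with a median of 2.06, and 0.723 to 49.2 FPKM in vehicle-treated mice, with a median of 1.94. Vehicle replicate 8, at 49.2, and AIMD replicate 6, at 25.4, stood far above the rest of their groups. Vehicle replicates 5 and 7 followed at 8.11 and 9.94, and the 5 other vehicle-treated mice were at 0.723 to 2.64. The log2 fold change over all mice was 0.01 with a wide 95% interval of -1.57 to 1.59 (limma adjusted p = 0.995). Without the 4 libraries it was 0.79 ± 0.33 (SE; limma adjusted p = 0.0869), and without the 6 libraries of highest Fabp6 it was 0.73 ± 0.16 (SE; limma adjusted p = 0.00963), with 1.49 to 2.30 FPKM in 5 AIMD mice and 0.723 to 1.25 FPKM in 4 vehicle-treated mice. In that set of 9 mice 11.5% of tested genes were called higher in AIMD mice.

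**Figure D3:**
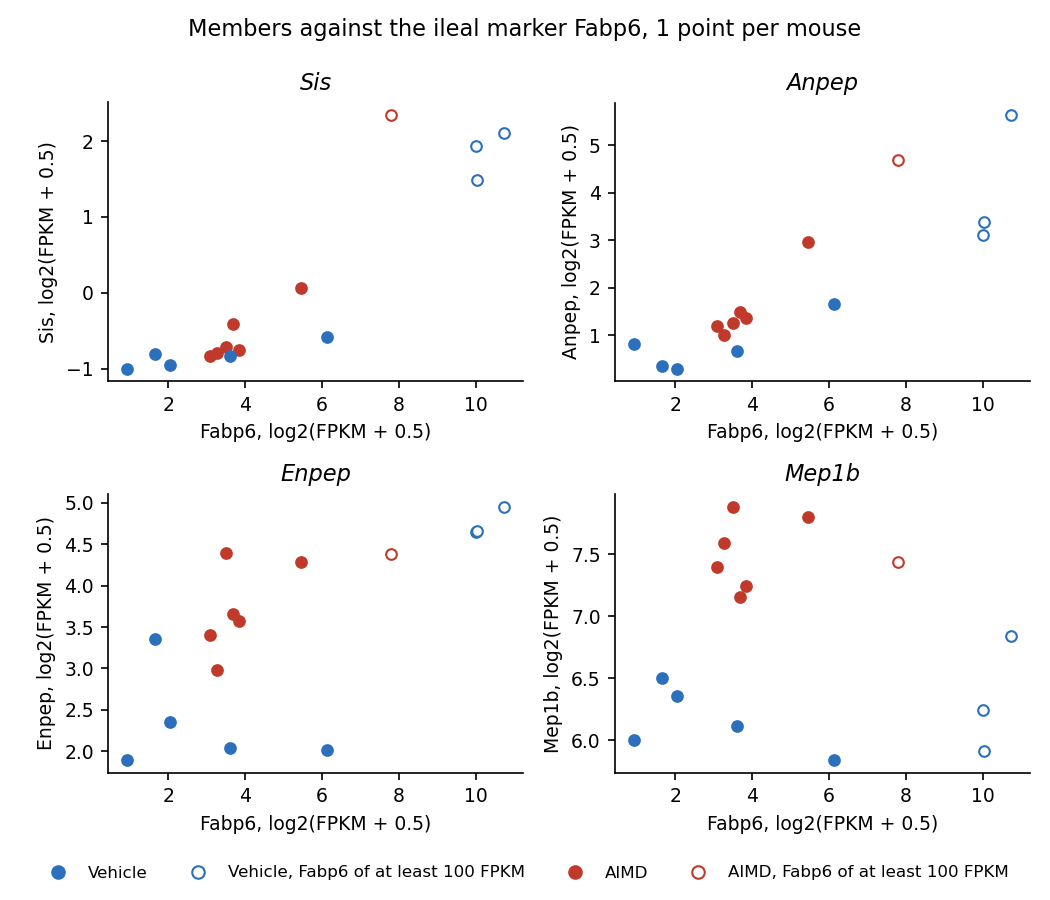
Sis, Anpep, Enpep and Mep1b against Fabp6, each as log2(FPKM + 0.5), 1 point per mouse, vehicle-treated in blue and AIMD in red, open circles for the 4 libraries with Fabp6 of at least 100 FPKM. Sis and Anpep are high in the open circles of both groups. Enpep is higher in most filled AIMD circles than in the filled vehicle circles, with ranges that overlap. Mep1b is higher in every AIMD mouse than in any vehicle-treated mouse, although the groups share only part of the Fabp6 axis.

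Among the 7 tested members, Anpep and Enpep were higher in all 3 vehicle libraries of high Fabp6 than in the 5 others, beside the 5.40% of all tested genes, and so was Sis, which was not tested. Alpi, Mep1a and Mep1b were not: these libraries held 8.53 to 25.5 FPKM of Alpi against 11.3 to 20.7 in the 5 others, 166 to 223 of Mep1a against 173 to 247, and 59.8 to 114 of Mep1b against 56.8 to 90.0. Deviations of log2 values from the group means were compared over 15 mice. Sis had a Pearson correlation of 0.94 with Anpep, 0.87 with Dpp4 and 0.82 with Enpep, and of 0.02 with Mep1a, 0.08 with Alpi and 0.20 with Mep1b. Mep1a, Mep1b and Alpi had 0.64 to 0.69 with each other. Treh had 0.68 with Anpep, 0.68 with Alpi and 0.61 with Mep1b, and Enpep had 0.45 with Mep1b. With the 4 libraries left out, Enpep had 0.94 with Mep1a, and its correlation with Anpep was 0.14. These correlations share the libraries and their depth and are given as a description.

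Dpp4 (chr2:62330073-62412231, minus strand), the peptidase that inactivates the incretins, was at 1.87 to 5.82 FPKM in AIMD mice, with a median of 2.69, and at 0.910 to 3.76 FPKM in vehicle-treated mice, with a median of 1.49. The highest mouse of each group, AIMD replicate 6 and vehicle replicate 8, was one of the 4 libraries. Without them, the AIMD mice began at 1.87, just above the 1.80 at which the vehicle-treated mice ended, with means of 2.60 ± 0.649 (SD, n = 6) and 1.32 ± 0.342 (SD, n = 5). The limma log2 fold change was then 0.76 ± 0.17 (SE), with an adjusted p of 0.00492, while over all 15 mice the limma adjusted p was 0.0537. Dpp4 passed there when the model held the clock-gene score (limma adjusted p = 0.0338), which leaves the fold change unchanged and alters only its error. It also passed with voom on recovered reads (limma adjusted p = 0.0211) and over 14 mice with a replicate block (limma adjusted p = 0.0316). These 14 mice leave out vehicle replicate 8, and without a block they gave the same fold change of 0.76 (limma adjusted p = 0.0119). Relative to epithelial genes the limma adjusted p was 0.338. Dpp4, Treh and Mep1b were the 3 members whose groups did not overlap among the 11 mice, as was the case for 9.02% of tested genes.

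Alpi (chr1:87098002-87101606, minus strand), intestinal alkaline phosphatase, was at 16.0 to 31.1 FPKM in AIMD mice, with a median of 23.2, and at 8.53 to 25.5 FPKM in vehicle-treated mice, with a median of 16.2. The groups overlapped widely, and the means were 22.8 ± 5.62 (SD, n = 7) and 16.0 ± 5.40 (SD, n = 8). The limma log2 fold change, 0.53 ± 0.21 (SE), did not pass, with an adjusted p of 0.0523, and without the 4 libraries it was 0.38 (limma adjusted p = 0.115). Alpi passed when the model held the clock-gene score (limma adjusted p = 0.0443), which again left the fold change unchanged. It also passed with voom (limma adjusted p = 0.0386) and with a replicate block over 14 mice (limma adjusted p = 0.0133). Those 14 mice lack vehicle replicate 8, and without a block they gave the same fold change of 0.63 (limma adjusted p = 0.0153). Relative to epithelial genes the limma adjusted p was 0.287. Of its 50-base windows, 2.40% also occur in the transcripts of other alkaline phosphatase genes. Its neighbours and paralogs were low or without reads, with Akp3 listed at 0 in all mice and Alppl2 at 0.1 FPKM or less, and Alpl did not exceed 0.418 FPKM.

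Over all 15 mice, 3 of the 7 tested members (Treh, Mep1a and Mep1b) were called higher in AIMD mice and none lower, beside 19.4% of all tested genes. The median log2 fold change of the 7 was 0.57, and that of all tested genes was 0.01. Over the 11 mice, 4 of the 7 (Treh, Enpep, Dpp4 and Mep1b) were called higher, beside 16.1% of all tested genes, with medians of 0.79 and -0.01. Treh counts among them although the filter favoured it. Relative to epithelial genes 2 of the 7, Treh and Mep1b, were called higher, where 6.33% of all tested genes were called higher and 26.1% lower. Markers of other cells of the cecal wall did not all move alike, beside the 16.6% of all tested genes that were lower. All 3 tested genes of neurons and glia were lower in AIMD mice (median log2 fold change -1.53), and the 5 genes of that list summed to 2.2 to 3.66 FPKM in AIMD and 3.27 to 57.6 FPKM in vehicle-treated mice. Of 6 smooth muscle genes 1 was lower, Tagln, a share near that of all tested genes, with a median of -0.80 for the list. The list summed to 211 to 805 FPKM in AIMD and 512 to 2988 FPKM in vehicle-treated mice. Of 6 fibroblast and pericyte genes 1 was lower, and none of 3 endothelial genes was called. Of 7 tested immune genes 1 was higher and 1 lower. The 8 epithelial genes had a median of 0.44. What part these shifts have in the members' differences was not tested beyond the values relative to epithelial genes. With log2 Fabp6 as a covariate over 15 mice, Enpep had a log2 fold change of 0.90 (limma adjusted p = 0.0253) and Dpp4 of 0.78 (limma adjusted p = 0.00142). Within the mice of negative and of positive clock-gene score, the log2 fold change of Mep1b was 1.47 and 1.09 (limma adjusted p = 0.00123 and 0.0113).

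**Figure D4:**
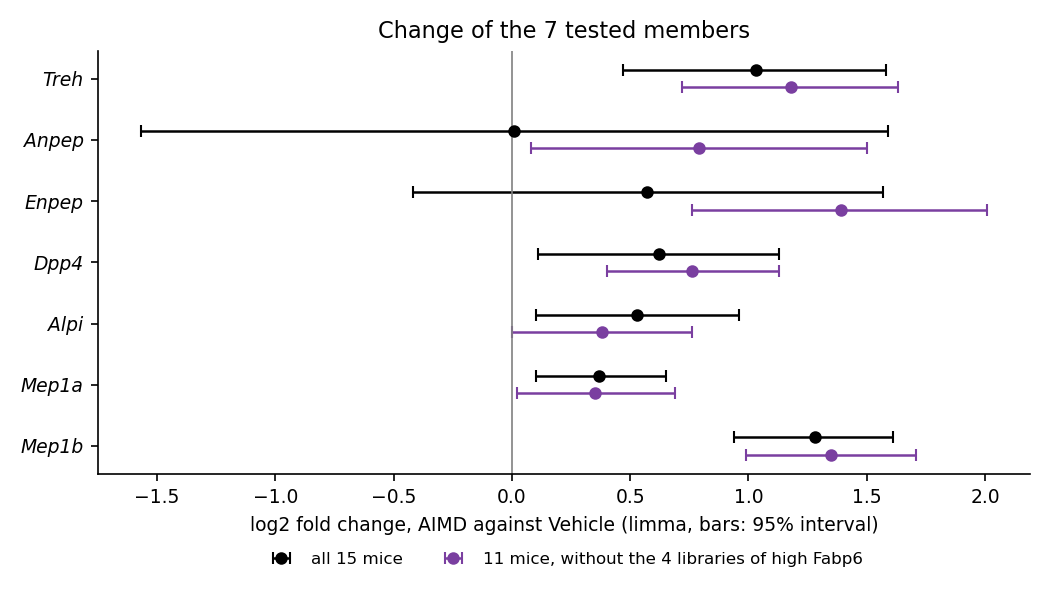
Log2 fold change of each tested member, AIMD against vehicle, from limma on log2(FPKM + 0.5), with 95% intervals, over all 15 mice (black) and over the 11 mice without the 4 libraries of high Fabp6 (purple). The intervals of Anpep and Enpep narrow and move up without these libraries, from 0.01 to 0.79 and from 0.57 to 1.39, while those of Mep1b, Treh and Mep1a stay close to where they were.

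Other enzymes of the brush border, with some relatives that are not of the border, were taken from a list of 26 genes. Of the list, 23 were above 0 and 15 were tested, and the counts cover border enzymes and relatives together. Of the 15 tested, 3 were higher in AIMD mice, 1 was lower and 11 did not pass, with a median log2 fold change of 0.21. The share called higher was close to the 19.4% of all tested genes. Relative to epithelial genes, 2 were higher and 3 lower, beside 6.33% and 26.1% of all tested genes. Entpd8, which breaks down extracellular nucleotides, was at 36.7 to 54.3 FPKM in AIMD and 20.6 to 30.7 in vehicle-treated mice (log2 fold change 0.78, limma adjusted p = 0.000125). Asah2, the neutral ceramidase, was at 1.32 to 2.33 FPKM in AIMD and 0.547 to 1.11 in vehicle-treated mice (log2 fold change 0.72, limma adjusted p = 0.000581). Neither pair of ranges overlapped, as was the case in this direction for 5.26% of all tested genes. Dpp8, the third, was in the list as a relative of Dpp4, although it is a cytosolic enzyme and not one of the border (log2 fold change 0.82, limma adjusted p = 8.36e-05). Ggt1, which splits glutathione at the membrane, fell from 2.22 to 8.89 FPKM in vehicle-treated mice to 0.443 to 1.59 FPKM in AIMD mice (log2 fold change -1.90, limma adjusted p = 1.12e-05). Dpep1, the most abundant gene of the list, was at 80.8 ± 11.5 FPKM (SD, n = 7) and 90.5 ± 18.4 FPKM (SD, n = 8) and did not pass (limma adjusted p = 0.430). Over the 11 mice without the 4 libraries, 5 enzymes of the list were called higher, beside 16.1% of all tested genes.

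Of 20 genes that build the microvillus, 19 were tested, and 9 were higher, 2 lower and 8 not called, with a median log2 fold change of 0.48, beside the 19.4% higher and 16.6% lower of all tested genes. Among the 11 mice 8 were higher and none was lower, where 16.1% of all tested genes were higher and 14.2% lower. Without the 6 libraries of highest Fabp6 the count was 3 higher and 1 lower. In that smaller set 11.5% of all tested genes were higher, so calls fell over all genes too. Tmigd1, an adhesion protein of the border and the most abundant of the list, was at 963 to 1448 FPKM in AIMD mice and 379 to 742 in vehicle-treated mice (log2 fold change 1.07, limma adjusted p = 0.000201). Eps8, which caps and bundles actin, had a log2 fold change of 1.23 (limma adjusted p = 0.000805), Ezr, which ties actin to the membrane, of 1.10 (limma adjusted p = 0.000554), and Cdhr5, a cadherin that links neighbouring microvilli, of 1.07 (limma adjusted p = 0.00397). Slc9a3r1, the scaffold partner of ezrin, was at 286 ± 59.1 FPKM (SD, n = 7) and 241 ± 119.6 FPKM (SD, n = 8) and did not pass (limma adjusted p = 0.267). Of the 8 epithelial structural genes themselves, 3 were higher and 1 was lower in AIMD mice. Relative to these genes 5 of the 19 microvillus genes were called higher and 2 lower, beside 6.33% and 26.1% of all tested genes. Vil1 is in both lists, so its own value enters the scale it is set against.

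Of 17 transcription factors of the enterocyte, 15 were tested, with 5 higher, 1 lower and 9 not called, and 3 higher over the 11 mice, beside the 19.4% and 16.1% of all tested genes. Relative to epithelial genes, 2 were higher and 2 lower, beside 6.33% and 26.1% of all tested genes. Hnf4a, a regulator of enterocyte genes, rose from 43.4 to 85.0 FPKM in vehicle-treated mice to 117 to 186 FPKM in AIMD mice (log2 fold change 1.25, limma adjusted p = 4.64e-05). Its relative Hnf4g went from 0.498 ± 0.274 FPKM (SD, n = 8) to 1.68 ± 0.535 FPKM (SD, n = 7; log2 fold change 1.14, limma adjusted p = 0.000286). All 7 AIMD mice had 0.991 FPKM or more of Hnf4g and the vehicle-treated mice 0.243 to 0.875. The AIMD mice alone thus met the filter, which favoured a difference, as for Treh. Isx, which represses genes of carotene uptake, fell by 0.67 on the log2 scale (limma adjusted p = 0.00300), and Klf4, a factor of differentiated epithelium, rose by 0.60 (limma adjusted p = 0.0121). Cdx2, a homeobox factor of the intestine whose motif letters stand in the Sis window, did not pass (limma adjusted p = 0.692).

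The genes whose deviations from the group means were most like those of a member over 15 mice were found by Pearson correlation of log2 values. For Anpep the first was Mttp (0.978), the lipid transfer protein of chylomicron assembly. For Enpep it was Myzap (0.955), for Dpp4 Aspa (0.901), for Treh Slc13a2 (0.868), for Alpi Aplp1 (0.883), for Mep1a Fmo5 (0.922) and for Mep1b Prss30 (0.839). Over the 11 mice Fmo5 remained the first for Mep1a, at 0.985, and it was also the first for Enpep, at 0.968. Cpm, a carboxypeptidase, was the first for Sis, at 0.932. Sis was under the filter and lay at 0 to 0.546 FPKM in these mice, with AIMD replicate 1 highest and the next at 0.253.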

How the data were processed

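Cecal poly-A RNA was sequenced as stranded libraries with 50-base single reads. Per the labels and methods, the authors aligned reads with STAR to GRCm38, assigned them to GENCODE genes with featureCounts, and deposited FPKM per mouse and symbol; how counts became FPKM is not given in the sources used here. The authors' own DESeq2 model held the time of sacrifice, which was not used here. Of 45808 rows, 4 with a repeated symbol were left out. Reads were recovered from the FPKM as whole numbers (tolerance 0.02), with the GENCODE M21 length for 68.1% of genes. For the others, Mep1b and Anpep among them, a length that made the reads whole was searched for. Every gene was recovered in this way, and the summed reads gave the depth.

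The FPKM were scaled by median-of-ratios factors (13594 genes) and tested as log2(FPKM + 0.5) with limma 3.58.1 (R 4.3.3; lmFit, eBayes with trend; two-sided, Benjamini-Hochberg) where at least 7 mice reached 0.5 FPKM. The factors ran from 1.0101 to 1.0104, so the deposited values already shared a common scale and this step changed little. Fold changes of log2(FPKM + 0.5) understate low genes. Members under the filter were compared by exact permutation of the group labels. Python 3.11.15, scipy 1.17.1 and matplotlib 3.10.9 were used. The steps were tested on simulated data. Counts and floors of 3 reads cover counting error only.

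The members, the lists and the tests were chosen with earlier results of these data known. All members are named. In the 3 other enzyme, microvillus and transcription factor lists, the 4 called genes with the largest change and the 2 with the highest level are named, and Akp3, Alppl2, Alpl, Cdx2 and the marker genes were named after their values were seen. For likeness, the 3 most correlated genes per member were found and the first is given, except for genes not reported here. Alternatives were other pseudocounts (0.1 and 1), no filter, other scalings, voom on recovered reads, each mouse left out, a clock-gene covariate, a replicate block and an exact rank-sum test. The clock-gene score is the first principal component of the clock genes, centred within each group, so its sign is relative to a mouse's own group. As a covariate it alters only the error of a fold change. It cannot adjust for a difference in clock phase between the groups. Leaving out the 4 or 6 libraries of highest Fabp6 (minimum 100 or 40 FPKM), Fabp6 as a covariate, and the separate fits to mice of negative and of positive clock-gene score were added after the data were seen. Nothing shows that replicate numbers pair mice: the 7 correlations of same-numbered mice ran from -0.328 to 0.384. Whether mice of a group shared a cage is not in the labels, so p-values measure the spread between these mice.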

Additional observations from a re-analysis of the deposited data

Results flagged for a closer look

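The highest mouse of a group stood apart from the rest by Dixon's criterion in 6 of the 18 groups of member values (9 genes in each treatment). Chance flags about 1 in 20 independent groups of normal values. That rate need not hold for the raw FPKM used here. These 18 groups also share their mice and hold genes that vary together, and all 6 flags come from 2 mice. AIMD replicate 6 was far above the other AIMD mice for Sis (4.57 FPKM, next 0.546), Anpep (25.4 FPKM, next 7.29), Dpp4 (5.82 FPKM, next 3.55) and Lct (0.047 FPKM from 4 reads, next 0.0186). Vehicle replicate 8 was far above the other vehicle-treated mice for Anpep (49.2 FPKM, next 9.94) and Treh (1.44 FPKM from 13 reads, next 0.443). Both are among the 4 libraries of high Fabp6, at 223 and 1701 FPKM, and the values without them stand in the report. Neither mouse was flagged for Alpi, Mep1a or Mep1b.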

How the results depend on the processing

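The direction and call of Mep1b held in every alternative tried, with log2 fold changes of 1.03 to 1.47. Those of Treh held in all except the 8 mice of positive clock-gene score (0.66, limma adjusted p = 0.260), although its size ran from 0.68 with a pseudocount of 1 to 1.93 with 0.1 and 2.46 with voom. The Mep1a call was lost without a filter (0.37), by the exact rank-sum test (0.46), relative to epithelial genes (0.13), without the 4 libraries of high Fabp6 (0.355), without the 6 (0.24), and in the mice of negative (0.38) and positive (0.348) clock-gene score. Dpp4 and Alpi became called with the clock-gene covariate (0.62 and 0.53), with voom on recovered reads (0.84 and 0.55) and with a replicate block over 14 mice (0.76 and 0.63). By construction the covariate leaves the fold changes as they are. The mice of the block lack vehicle replicate 8, and the fold changes are those found without that mouse. The block changed no other call (4646 genes called), and only number 7 of the 7 correlated best with its own number. Relative to epithelial genes Dpp4, Alpi and Enpep fell to 0.375, 0.284 and 0.328, none called, and Alpi was 0.216 without the 6 libraries. Without the 4 libraries Dpp4 was 0.76, Enpep 1.39 and Sis 0.26; without the 6 they were 0.77, 1.195 and 0.20, with Anpep called at 0.73 and 2586 genes called. With Fabp6 as a covariate Dpp4 was 0.78 and Enpep 0.90. Enpep was 1.54 and Sis 0.35 in the mice of negative clock-gene score (1883 genes called), and Enpep was -0.44 and Anpep -0.96 in those of positive score (2477 genes called). Anpep also turned negative with a pseudocount of 1 (-0.043), quantile normalization (-0.025) and relative to epithelial genes (-0.24). The causes of these changes were not tested, and the smaller sets also hold fewer mice.

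With each mouse left out in turn, log2 fold changes ranged from 1.211 to 1.363 for Mep1b, 0.932 to 1.222 for Treh, 0.313 to 0.433 for Mep1a, 0.415 to 0.633 for Alpi, 0.47 to 0.756 for Dpp4, 0.38 to 0.818 for Enpep and -0.444 to 0.528 for Anpep, differences from -0.741 to -0.049 for Sis and -0.075 to -0.024 for Lct, and genes called from 3551 to 4638. Mep1a was not called without AIMD replicate 1, 4, 5 or 6 or vehicle replicate 1, 2, 4, 5 or 7 (limma adjusted p = 0.0524 to 0.0823). Dpp4 was called without AIMD replicate 3 or vehicle replicate 5 or 8 (0.705, 0.708 and 0.756), and Alpi without AIMD replicate 2 or 7 or vehicle replicate 6 or 8 (0.586, 0.607, 0.591 and 0.633).

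Depth limits Lct and Treh, with at most 4 and 63 reads in a mouse. Strand and counting settings were not examined.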
